A study of Mus musculus with 44 samples.

Results

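Genes for the proteins of the mitochondrial ribosome were compared between the striatum of C57BL/6J (B6) and DBA/2J (D2) mice. The members are all genes whose symbol starts with Mrpl or Mrps in the platform annotation, and Dap3, which gives 77 of the 18101 genes with values in the series. On the Affymetrix arrays 157 probesets are annotated to a single member, and 114 of these, for 64 genes, have values, among 38870 probesets with values. The other 43 are listed without values, and 4 more probesets are annotated to a member together with other genes and were not counted. The Illumina normalized table holds 101 probes of 71 members among its 14185 probes. Values on both array types exist for 58 of the 77 genes.

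The Affymetrix arrays hold 5 B6 females, 5 B6 males, 5 D2 females and 5 D2 males, and the Illumina arrays hold 12 B6 males and 12 D2 males. All mice were naïve adults of inbred strains that differ at many places in the genome, and each array carries the RNA of the striatum of 1 mouse. In such bulk RNA, fewer cells of a type and less RNA per cell cannot be told apart. Affymetrix probes over a SNP between the strains were masked by the authors before the values were made. In their own analysis the authors also removed Illumina probes over SNPs, but the normalized table was used here whole, without that step, so a difference in hybridization and one in expression cannot be told apart at an Illumina probe.

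The mitochondrial ribosome translates the few mRNAs that are encoded in mitochondrial DNA, all of them for subunits of the respiratory chain and of ATP synthase. Its rRNAs come from the mitochondrial genome, but all of its proteins are encoded in the nucleus and imported. Mrps genes mostly encode proteins of the small subunit, which binds the mRNA, and Mrpl genes encode proteins of the large subunit, which joins the amino acids. The names do not follow the subunits throughout: Mrps18a and Mrps30 encode proteins of the large subunit, Mrps36 a protein of the 2-oxoglutarate dehydrogenase complex, and Dap3 a GTP-binding protein of the small subunit that was first described in cell death.

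The Illumina probes are single oligonucleotides, and their sequences were read from the probe identifiers of the normalized table. All 101 member probes decoded to 50 bases with a matching check character. The probes of Dap3, Mrpl48, Mrpl3 and Mrpl55 are shown because the differences described below rest on them. Capitals mark the bases that a probe shares with another probe of the same gene.
Dap3 ILMN_2620078: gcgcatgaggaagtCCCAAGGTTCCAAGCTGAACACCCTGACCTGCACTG
Dap3 ILMN_2722542: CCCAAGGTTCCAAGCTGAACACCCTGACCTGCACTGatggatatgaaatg
Dap3 ILMN_2646230: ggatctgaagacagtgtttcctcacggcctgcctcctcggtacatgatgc
Dap3 ILMN_2953910: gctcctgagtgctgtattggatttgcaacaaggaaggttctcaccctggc
Mrpl48 ILMN_1216122: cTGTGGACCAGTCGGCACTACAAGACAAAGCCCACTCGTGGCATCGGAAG
Mrpl48 ILMN_2663679: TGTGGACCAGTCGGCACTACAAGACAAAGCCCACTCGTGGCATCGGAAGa
Mrpl48 ILMN_1236131: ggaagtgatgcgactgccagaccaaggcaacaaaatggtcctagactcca
Mrpl3 ILMN_1231390: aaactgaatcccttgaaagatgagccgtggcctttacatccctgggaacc
Mrpl3 ILMN_2643264: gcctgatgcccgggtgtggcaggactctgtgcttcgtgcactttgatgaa
Mrpl55 ILMN_2590185: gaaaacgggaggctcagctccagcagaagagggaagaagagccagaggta
The first 2 Dap3 probes share 36 bases and the first 2 Mrpl48 probes share 49, so each of these pairs measured nearly the same stretch of RNA. The other 2 Dap3 probes, the remaining Mrpl48 probe and both Mrpl3 probes share no such run with another probe of their gene. In all, 22 members have several Illumina probes, which form 40 pairs, and 4 pairs share bases.

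Some arrays stood apart from the others of their strain. The array labelled B6 female 64 lay nearer to the D2 arrays at the members that were higher in D2. It was high at some other members too. In the Illumina set, 4 D2 arrays (3, 5, 6 and 12) had the lowest mean bead signals of that strain. The mean signal per array was 1223 to 1822 in B6 and 599.3 to 1849 in D2. All of these arrays were kept, and values without them are given where they matter.

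Most members differed little between the strains, and those that differed did so in both directions. A feature was called at an adjusted p under 0.01 in a limma fit over all features of an array type, and each difference is B6 minus D2. On the Affymetrix arrays 89 member probesets of 61 genes passed the filter on low values, and 12 of them (13.5%) were called, against 9.7% of all 19437 probesets tested. Of the 12, 5 were higher in B6 (all probesets 4.7%) and 7 were higher in D2 (all probesets 5%), for 5 genes in each direction. The median difference was −0.020 over the members and −0.025 over all probesets, on the log2 scale of the RMA values. On the Illumina arrays 96 probes of 69 genes were tested and 17 (17.7%) were called, against 9.77% of all 11072 probes. Here 13 probes were higher in B6 (all probes 5.36%) and 4 were higher in D2 (all probes 4.41%). Of these 17 probes 4 belong to Dap3 and 3 to Mrpl48. Counted by gene, 10 of 61 members (16.4%) were called on the Affymetrix arrays, against 12.5% of all genes, and 9 of 69 (13%) on the Illumina arrays, against 11.6% of all genes. The Illumina share of member genes was thus near that of all genes. By their leading probe, 7 of the 9 had the higher values in B6 and 2 in D2. The median difference was −0.007 over the members and −0.016 over all probes, on the scale of the variance-stabilized (VST) values, which approaches log2 at high signal and compresses differences at low signal.

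No overlap between the strains was seen at 6 tested member probesets (6.74%, against 3.21% of all) and at 7 tested member probes (7.29%, against 2.88% of all). These 7 probes belong to Dap3, Mrpl48, Mrpl35 and Mrpl55 alone, and include the Dap3 and Mrpl48 pairs that share bases. Those of Mrpl35 and Mrpl55 and Mrpl48 ILMN_2663679 were detected on every B6 array but not on every D2 array, and so entered the test through the strain where they are high. On the Affymetrix arrays 73 of the 89 differences were within 0.2 of zero and 5 exceeded 0.5 in size, and on the Illumina arrays 67 of 96 were within 0.2 and 7 exceeded 0.5. The filter on detection let 9 member probes through that were detected on all 12 B6 arrays but not on every D2 array, and none the other way round. Among the 87 member probes detected on all 24 arrays, 14 were called, where 8.21% of all such probes were called. Of the 14, 10 had the higher values in B6 and 4 in D2, and 44.6% of all calls were higher in B6.

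**Figure D1:**
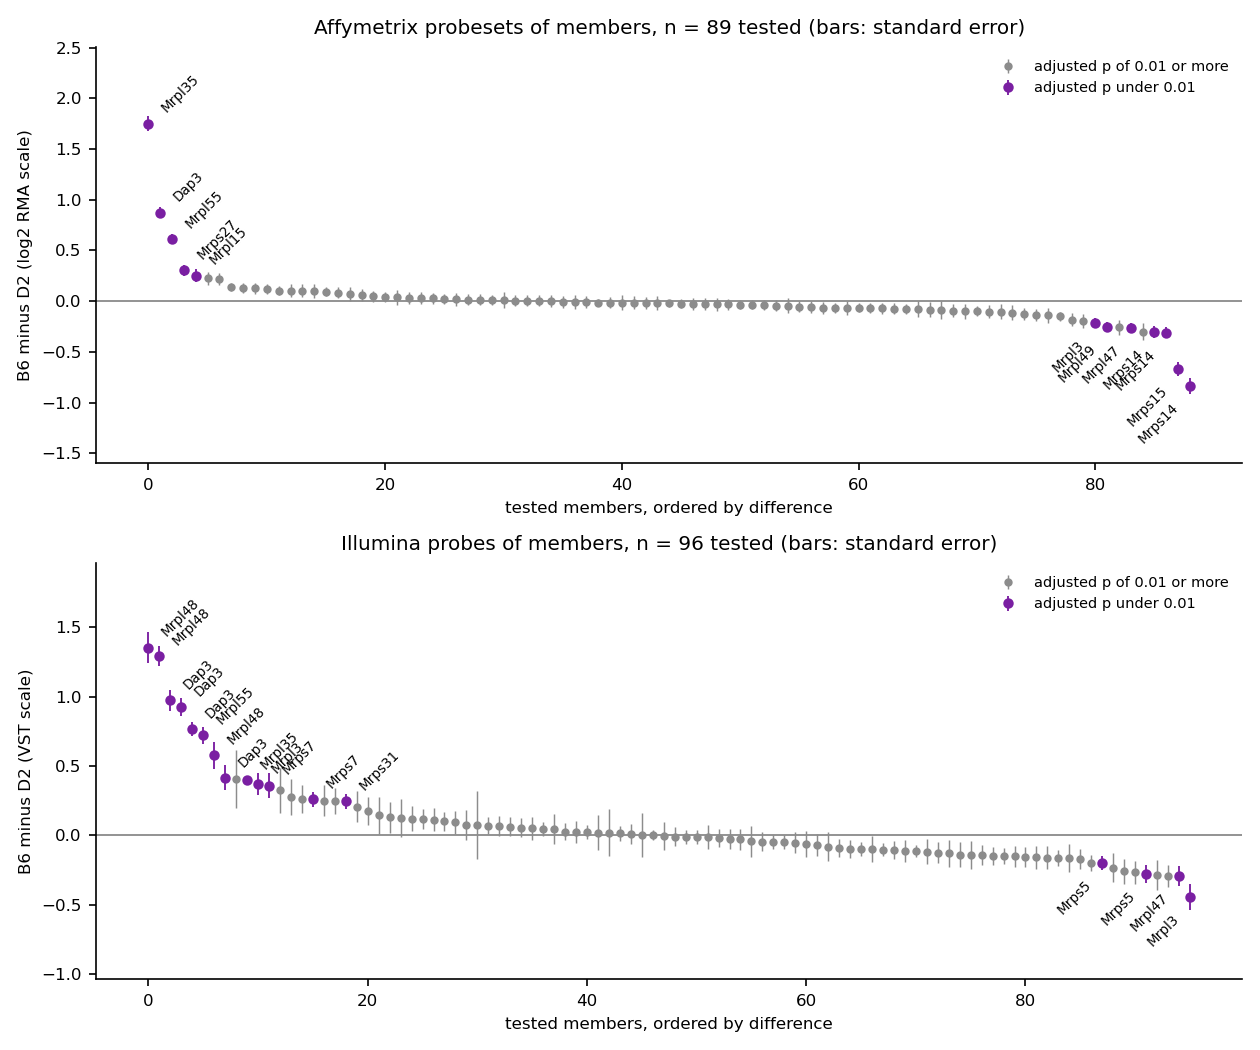
Difference between the strains (B6 minus D2) at every tested member feature, ordered by size, for 89 Affymetrix probesets (top, log2 RMA scale) and 96 Illumina probes (bottom, VST scale). Bars are standard errors, and called features are coloured and named: a few stand apart at both ends, and most lie close to zero.

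Dap3 was higher in B6 at every probe that measured it. Its Affymetrix probeset 1450848_at read 9.88 to 10.24 (median 10.09) on the B6 arrays, against 8.98 to 9.34 (median 9.22) on the D2 arrays, as log2 RMA values. The lowest B6 array thus lay above the highest D2 array. B6 minus D2 was 0.87 (standard error, SE, 0.0504; adjusted p = 3.54e-11), or 1.83-fold. On the Illumina arrays ILMN_2953910 read 10.45 to 11.04 (median 10.84) in B6, against 9.89 to 10.28 (median 10.07) in D2, as VST values. The strains did not overlap at this probe either, and they differed by 0.77 (SE 0.0511, adjusted p = 6.99e-12).

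The remaining Dap3 probes had the same direction. The overlapping probes ILMN_2620078 and ILMN_2722542 differed by 0.97 (adjusted p = 1.13e-10) and 0.92 (adjusted p = 2.17e-11), also without overlap between strains. Their median bead signals before normalization were 11604 and 11373 in B6 and 5407 and 5447 in D2. ILMN_2646230 gave a smaller difference of 0.41 (adjusted p = 0.00157), with 10.06 to 10.66 (median 10.46) in B6 against 9.75 to 10.65 (median 9.96) in D2. The strains overlapped there through the dim D2 arrays, since the highest D2 values, 10.65, 10.33, 10.29 and 10.24, were those of arrays 6, 5, 12 and 3. Without these 4 arrays Dap3 differed by 0.58 at ILMN_2646230 (adjusted p = 5.88e-07) and by 0.76 to 0.98 at the other 3 probes.

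**Figure D2:**
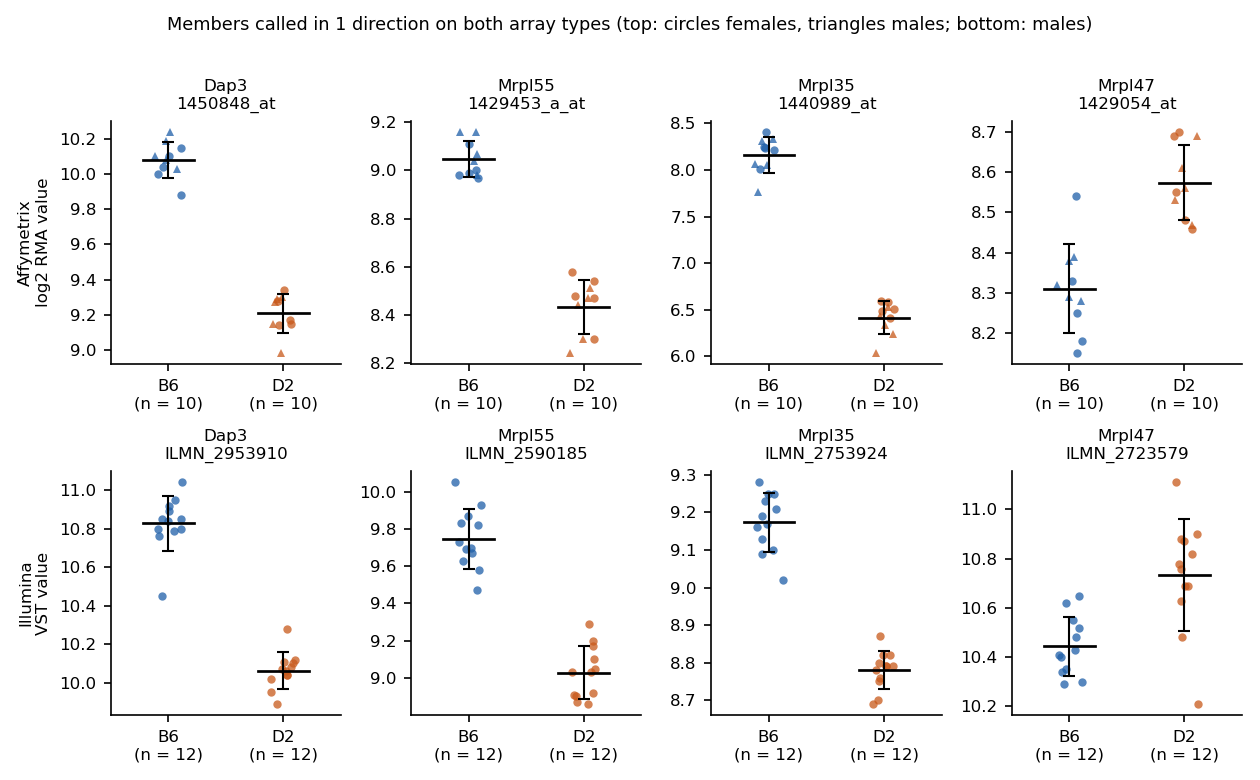
Values of the 4 members called in the same direction on both array types, as log2 RMA values of 10 B6 and 10 D2 mice (top, circles females, triangles males) and as VST values of 12 B6 and 12 D2 male mice (bottom). Lines are means and bars SD: Dap3, Mrpl55 and Mrpl35 show no overlap between strains, and Mrpl47 lies lower in B6 with overlap.

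Among the proteins of the small subunit that have a bacterial counterpart, Mrps14 was higher in D2 at all 3 of its Affymetrix probesets. The dim probeset 1443262_at read 5.91 to 6.87 (median 6.2) on the B6 arrays and 7.0 to 7.14 (median 7.07) on the D2 arrays. The D2 arrays lay close together and above every B6 array, and B6 minus D2 was −0.83 (SE 0.0785, adjusted p = 6.34e-08), or 1.78-fold higher in D2. At the brighter probesets 1420488_at and 1420489_at the differences were −0.31 (adjusted p = 2.87e-04) and −0.305 (adjusted p = 9.41e-04). At 1420488_at B6 values were 10.22 to 10.76 and D2 values 10.57 to 10.87, and only B6 female 64 reached into the D2 range. Without that array the 3 Mrps14 differences were −0.90 (1443262_at), −0.35 (1420488_at) and −0.35 (1420489_at). Mrps14 was not measured on the Illumina arrays in the table used here.

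Mrps15, another such protein of the small subunit, was called at 1 of its 3 probesets. At 1430100_at B6 read 5.69 to 6.3 (median 5.91) and D2 read 6.45 to 6.85 (median 6.6), without overlap. B6 minus D2 was −0.67 (SE 0.0657, adjusted p = 1.19e-07), or 1.59-fold higher in D2. The brighter probesets 1449294_at and 1456109_a_at had −0.15 (adjusted p = 0.0252) and −0.19 (adjusted p = 0.0609). Without B6 female 64 the call extended to 1449294_at, at −0.17 (adjusted p = 0.00861). The Illumina probe of Mrps15, ILMN_1224268, had 0.13 (SE 0.137, adjusted p = 0.556). It read 10.10 to 10.44 in B6, and in D2 it read 8.97, 9.44 and 9.88 on arrays 12, 5 and 6 and 10.08 to 10.57 on the others.

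Mrps5 and Mrps7, which also have bacterial counterparts, were called on the Illumina arrays alone and in opposite directions. Mrps5 was higher in D2 at both probes. ILMN_2716014 read 10.21 to 10.61 (median 10.34) in B6 against 10.34 to 10.98 (median 10.66) in D2, with overlap, and B6 minus D2 was −0.28 (SE 0.0656, adjusted p = 0.00353). The other Mrps5 probe, ILMN_2780177, had −0.20 (adjusted p = 0.00652), and the Affymetrix probesets had −0.04 (adjusted p = 0.651) and 0.10 (adjusted p = 0.326). Mrps7 was higher in B6 at both probes. ILMN_2981818 read 11.77 to 12.20 (median 11.95) in B6 against 11.51 to 11.89 (median 11.70) in D2, and the strains differed by 0.26 (SE 0.0534, adjusted p = 9.05e-04). The other Mrps7 probe, ILMN_2981821, had 0.36 (adjusted p = 0.00550), and the Affymetrix probeset 0.035 (SE 0.0587, adjusted p = 0.759).

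Some of these calls lay close to the threshold and were lost on leaving out any 1 of several arrays. That of Mrps5 ILMN_2780177 was lost without B6 array 2, 3, 6, 7, 9 or 11 or D2 array 3, 5, 7, 8 or 10, with adjusted p of 0.0107 to 0.014, and without the 4 dim D2 arrays (adjusted p = 0.0104). That of Mrps7 ILMN_2981821 was lost without B6 array 1, 5, 7, 11 or 12 or D2 array 5 or 7, with adjusted p of 0.01 to 0.0111. Over the small-subunit genes with a bacterial counterpart, 2 of 15 genes were called on the Illumina arrays (13.3%, against 11.6% of all genes), 1 in each direction, and 2 of 13 on the Affymetrix arrays (15.4%, against 12.5%), Mrps14 and Mrps15.

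Proteins of the small subunit without a bacterial counterpart include Dap3, Mrps27 and Mrps31, and the calls of this class were higher in B6. They fell on 2 of 8 Affymetrix genes, against 12.5% of all genes, and on 2 of 10 Illumina genes, against 11.6%, and 4 of the 5 called probes were those of Dap3. Mrps27, a pentatricopeptide repeat protein, read 7.86 to 8.02 (median 7.93) in B6 against 7.31 to 7.84 (median 7.67) in D2 at Affymetrix probeset 1433646_at. The ranges nearly touched but did not overlap, and B6 minus D2 was 0.305 (SE 0.0520, adjusted p = 1.83e-04). Its Illumina probe was detected on 11 B6 arrays and 1 D2 array and was not tested.

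Mrps31 was called at 1 of 3 Illumina probes. ILMN_2736094 read 9.70 to 10.20 (median 9.89) in B6 against 9.45 to 9.99 (median 9.67) in D2, with overlap, and B6 minus D2 was 0.25 (SE 0.0552, adjusted p = 0.00210). Without the 4 dim D2 arrays it was 0.21 and no longer called (adjusted p = 0.0177). The other Mrps31 probes had −0.15 (adjusted p = 0.178) and −0.12 (adjusted p = 0.279), and the tested Affymetrix probeset 0.006 (SE 0.0545, adjusted p = 0.962).

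The 3 genes of the Mrps18 family, whose products occupy different places in the ribosome, had no call. Mrps18a, of the large subunit, had −0.05 on the Affymetrix arrays (SE 0.0522) and −0.17 on the Illumina arrays (adjusted p = 0.101). Mrps18b had 0.02 and 0.03 at its Illumina probes. Mrps18c had 0.03 on the Affymetrix arrays (adjusted p = 0.773) and 0.08 on the Illumina arrays (SE 0.246, adjusted p = 0.862). That Illumina probe spread widely in both strains, at 9.80 to 12.14 (median 11.92) in B6 against 10.18 to 12.27 (median 11.84) in D2, with the lowest values on B6 array 2 and D2 arrays 12, 6 and 5.

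In the large subunit, Mrpl35 had the largest difference among tested Affymetrix probesets of members, at 1 of its 3 probesets. Probeset 1440989_at read 7.76 to 8.41 (median 8.22) on B6 arrays and 6.03 to 6.59 (median 6.46) on D2 arrays. Even the nearest arrays of the strains were more than a log2 unit apart, and B6 minus D2 was 1.75 (SE 0.0725, adjusted p = 1.27e-13), or 3.36-fold. The brighter probeset 1419363_a_at read 8.83 to 9.12 (median 9.06) in B6 against 8.63 to 9.07 (median 8.90) in D2, a difference of 0.13 (adjusted p = 0.141). The remaining one, 1419362_at, was too dim to be tested and differed by 0.42. The Illumina probe ILMN_2753924 was detected in 12 of 12 B6 mice and in 0 of 12 D2 mice, so its D2 values were at background and it passed the filter through B6 alone. B6 read 9.02 to 9.28 (median 9.18) and D2 read 8.69 to 8.87 (median 8.79). It was called higher in B6 (adjusted p = 7.71e-10), and no size is given against values at background.

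Mrpl55, another protein of the large subunit, was higher in B6 on both array types. Affymetrix probeset 1429453_a_at read 8.97 to 9.16 (median 9.02) in B6 against 8.24 to 8.58 (median 8.47) in D2, and B6 minus D2 was 0.61 (SE 0.0479, adjusted p = 4.35e-09), or 1.53-fold. The Illumina probe ILMN_2590185 read 9.47 to 10.05 (median 9.71) in B6 against 8.86 to 9.29 (median 9.03) in D2, and B6 minus D2 was 0.72 (SE 0.0620, adjusted p = 9.91e-10). Neither feature showed overlap between the strains, and the Illumina probe was detected in 12 B6 mice and 7 D2 mice, so that it too passed the filter through B6 alone.

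Mrpl48, a protein of the central protuberance that faces the small subunit, had the largest differences among tested Illumina probes of members. ILMN_1216122 read 10.91 to 11.31 (median 11.18) in B6 against 9.44 to 10.14 (median 9.87) in D2, and B6 minus D2 was 1.29 (SE 0.0723, adjusted p = 1.63e-13). ILMN_2663679, which shares all but 1 of its bases, read 10.91 to 11.37 (median 11.04) in B6 against 8.996 to 10.31 (median 9.78) in D2, and B6 minus D2 was 1.35 (SE 0.109, adjusted p = 3.14e-10). The strains did not overlap at either. ILMN_2663679 was detected on 12 B6 arrays and 11 D2 arrays, so that it passed the filter through B6 alone. ILMN_1236131 covers other sequence and read 10.62 to 11.24 (median 10.91) in B6 against 9.83 to 10.70 (median 10.31) in D2, with overlap and a smaller difference of 0.58 (SE 0.0988, adjusted p = 9.61e-05).

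D2 arrays 5 and 6 had the lowest values at ILMN_1236131 and ILMN_2663679. Without the 4 dim D2 arrays the Mrpl48 differences were 1.21 (ILMN_1216122), 1.16 (ILMN_2663679) and 0.47 (ILMN_1236131), all still called. On the Affymetrix arrays the only Mrpl48 probeset with values, 1442016_at, read 7.52 to 7.95 (median 7.76) in B6 against 7.61 to 7.98 (median 7.86) in D2. B6 minus D2 was −0.07 there (SE 0.0556, adjusted p = 0.430), with the strains overlapping over nearly their whole range.

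Mrpl3, a protein of the large subunit with a bacterial counterpart, was the only member with probes called in opposite directions. ILMN_1231390 was higher in B6, at 9.89 to 10.57 (median 10.37) against 9.56 to 10.18 (median 10.01) in D2, and differed by 0.37 (SE 0.0767, adjusted p = 9.12e-04). ILMN_2643264 read 10.38 to 11.34 (median 10.68) in B6 against 10.91 to 11.58 (median 11.12) in D2, and B6 minus D2 was −0.44 (SE 0.0922, adjusted p = 9.82e-04). The highest values at that probe, 11.58, were those of D2 arrays 5 and 6, and the highest B6 value was that of array 2. Without the 4 dim D2 arrays neither call held (0.29, adjusted p = 0.01, and −0.32, adjusted p = 0.0123).

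The 4 tested Affymetrix probesets of Mrpl3 were mixed too. Probeset 1422464_at read 9.37 to 9.76 (median 9.50) in B6 against 9.56 to 9.85 (median 9.74) in D2 and was called at −0.215 (SE 0.0480, adjusted p = 0.00280). This call of Mrpl3 was lost with each array centred on its median (−0.19) and in each sex alone (−0.20 in females, −0.23 in males). Of the other Mrpl3 probesets, 1422463_a_at had −0.30 (adjusted p = 0.0155), 1440636_at −0.07 (adjusted p = 0.359) and 1431006_at 0.22 (adjusted p = 0.0121). Without B6 female 64, 1422463_a_at was called at −0.36 (adjusted p = 3.67e-04).

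**Figure D3:**
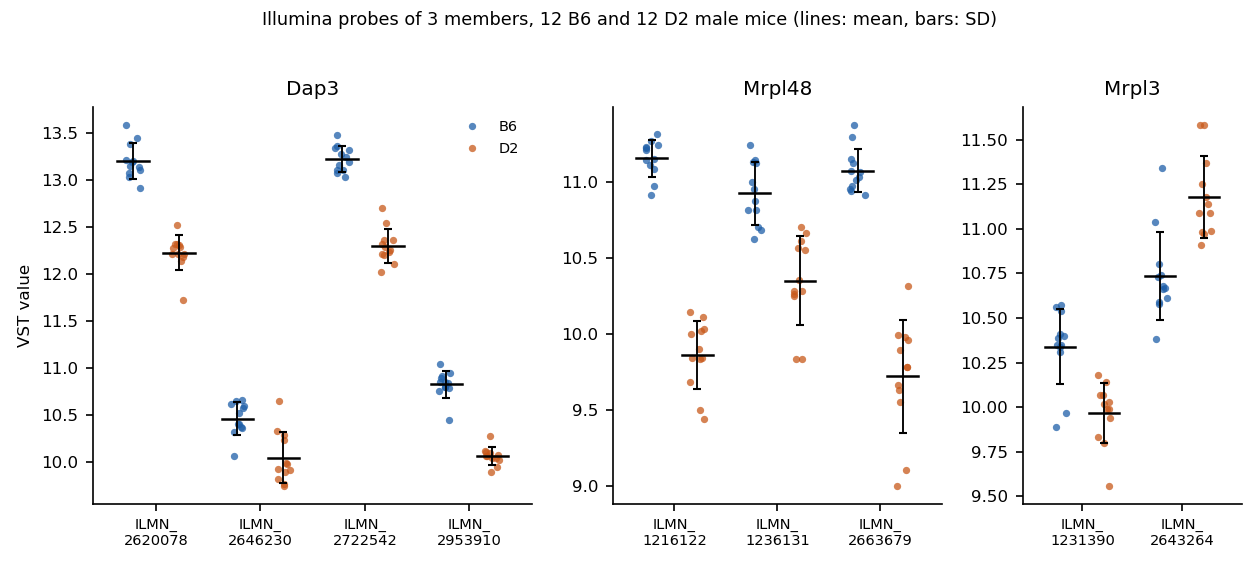
VST values of 12 B6 and 12 D2 male mice at each Illumina probe of Dap3, Mrpl48 and Mrpl3, with means (lines) and SD (bars). B6 is higher at all 4 Dap3 and all 3 Mrpl48 probes, and the Mrpl3 probes differ in opposite directions.

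Mrpl47, at the rim of the exit tunnel, was the member called higher in D2 on both array types. Affymetrix probeset 1429054_at read 8.15 to 8.54 (median 8.30) in B6 against 8.46 to 8.70 (median 8.55) in D2, and B6 minus D2 was −0.26 (SE 0.0501, adjusted p = 6.06e-04). The highest B6 value was that of B6 female 64, and the other B6 arrays reached 8.39. The Illumina probe ILMN_2723579 read 10.29 to 10.65 (median 10.42) in B6 against 10.21 to 11.11 (median 10.77) in D2, and B6 minus D2 was −0.29 (SE 0.0729, adjusted p = 0.00570). Its second Illumina probe had −0.10 (adjusted p = 0.333). The Illumina call of Mrpl47 was lost without B6 array 1, 3, 5, 6, 7 or 10 or D2 array 4, 7, 8 or 12, with adjusted p of 0.0101 to 0.0118.

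A dim Affymetrix probeset of Mrpl47, 1443915_at, ran the other way. It was below the filter on low values and read 5.88 to 6.35 (median 6.16) in B6 against 4.73 to 5.25 (median 5.04) in D2. The strains did not overlap, and B6 minus D2 was 1.14, with an adjusted p of 1.21e-11 in the fit without the filter.

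Mrpl15 and Mrpl49 were called on the Affymetrix arrays. On the Illumina arrays Mrpl15 was not tested and Mrpl49 was not called. Mrpl15, which has a bacterial counterpart, read 8.96 to 9.34 (median 9.11) in B6 against 8.59 to 9.05 (median 8.88) in D2 at 1425189_a_at, and B6 minus D2 was 0.25 (SE 0.0637, adjusted p = 0.00763). The Mrpl15 call was lost without B6 female 62 or 64, B6 male 67, 68, 69 or 70, D2 female 71, 73 or 74, or D2 male 76, 78 or 79, with adjusted p of 0.0102 to 0.0166. The second tested probeset of Mrpl15 had 0.085 (adjusted p = 0.301). Its Illumina probe, ILMN_1239507, was detected on 11 B6 arrays and 1 D2 array and so was not tested. In the limma fit without the filter on detection that probe was higher in B6 (adjusted p = 4.25e-04). Mrpl49, which has no bacterial counterpart, read 8.24 to 8.64 (median 8.4) in B6 against 8.52 to 8.74 (median 8.67) in D2 at 1423218_a_at, and B6 minus D2 was −0.25 (SE 0.0494, adjusted p = 7.56e-04). Its second probeset had −0.13 (adjusted p = 0.147), and its 3 tested Illumina probes had −0.10, −0.23 and −0.11, none of them called.

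Other regions of the large subunit hold few tested genes, so their shares rest on small counts. In the stalk, which recruits translation factors, no gene was called. The Affymetrix differences were −0.02 for Mrpl10 (adjusted p = 0.810) and −0.03 for Mrpl11 (adjusted p = 0.696). The Illumina differences were −0.14 and 0.06 for Mrpl10, 0.26 for Mrpl11 (adjusted p = 0.0846) and −0.006 for Mrpl12 (adjusted p = 0.975). A dim probeset of Mrpl11, 1438080_at, was not tested and differed by 0.33 (adjusted p = 1.73e-04 in the fit without the filter). At the rim of the exit tunnel Mrpl47 was the gene called among 4 Affymetrix genes (25%, against 12.5% of all genes) and 5 Illumina genes (20%, against 11.6%). In the central protuberance 0 of 6 Affymetrix genes and 1 of 7 Illumina genes (14.3%, against 11.6% of all genes), Mrpl48, were called. Of the large-subunit genes with a bacterial counterpart 5 of 23 were called on the Affymetrix arrays (21.7%, against 12.5% of all genes) and 4 of 26 on the Illumina arrays (15.4%, against 11.6%). Of those without one it was 1 of 14 (7.14%), Mrpl49, and 1 of 15 (6.7%), Mrpl48.

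Some uncalled features had larger differences than some called ones. On the Affymetrix arrays the 77 uncalled member probesets had differences of −0.30 to 0.22. Their SE over the 89 tested had a median of 0.0575 and reached 0.0864. On the Illumina arrays the 79 uncalled probes had −0.29 to 0.41. The SE over the 96 tested had a median of 0.0766 and reached 0.246, so a missing call does not show a small difference at every probe. Positive differences were seen at 35 and negative ones at 54 tested probesets, and at 47 and 49 tested probes. A further 25 member probesets with values were below the filter, of which 1 (Mrpl47 1443915_at) showed no overlap. The share without overlap over all probesets below the filter was not computed.

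Probes of 1 gene, which share their mice and are not replicates, often differed in sign where differences were small. On the Affymetrix arrays 21 members have several tested probesets. Their signs were mixed for 7, and of the 6 with a call, all probesets were called for 1 (Mrps14) and some for 5. On the Illumina arrays 21 members have several tested probes, with mixed signs for 9, and of the 7 with a call all probes were called for 5 (Dap3, Mrpl3, Mrpl48, Mrps5 and Mrps7).

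Across array types, 54 members were tested on both, in separate mice. Each was read at the probe of lowest adjusted p on each array type. By this reading 5 were called on both, of which 4 had the same direction (Dap3, Mrpl35 and Mrpl55 higher in B6, Mrpl47 higher in D2) and Mrpl3 did not. The Illumina probes of Mrpl35 and Mrpl55 passed the filter through B6 alone, where they are high, and among probes detected on all 24 arrays the count with the same direction was 2 (Dap3 and Mrpl47). Of the others, 2 were called on the Affymetrix arrays alone (Mrpl49 and Mrps15) and 4 on the Illumina arrays alone (Mrpl48, Mrps31, Mrps5 and Mrps7). Among the 43 called on neither, the sign was the same for 24 and different for 19. These counts across array types were made for the members alone. The same counts over all genes were not made, so they cannot be set against the series.

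**Figure D4:**
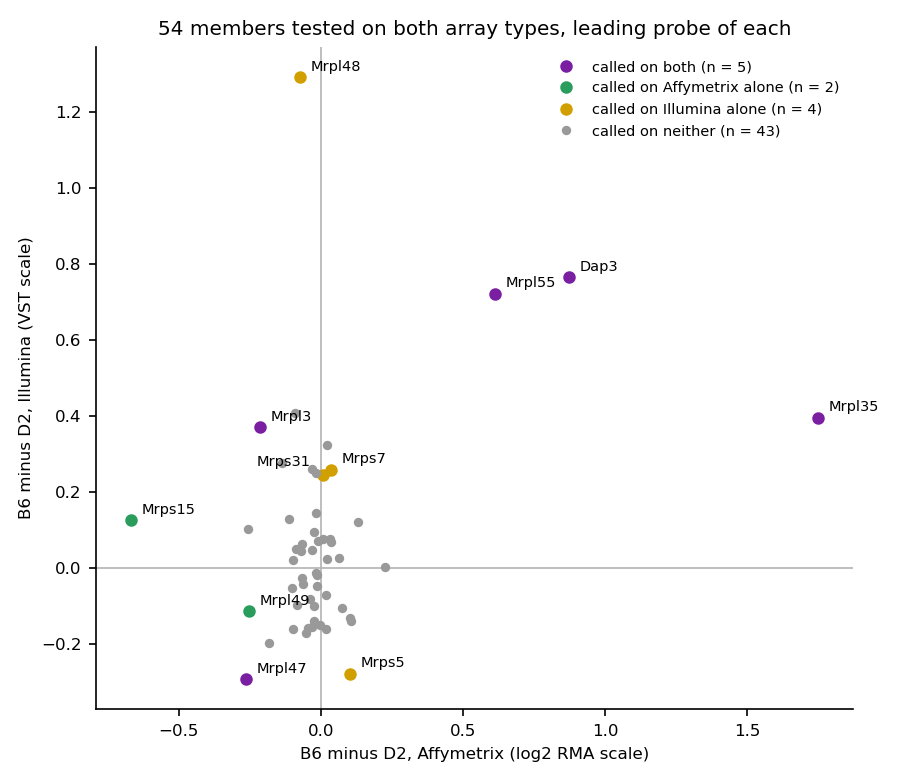
Difference between the strains on the Affymetrix arrays (horizontal, log2 RMA scale) against that on the Illumina arrays (vertical, VST scale) for the 54 members tested on both, each at its probe of lowest adjusted p. Dap3, Mrpl55 and Mrpl35 lie to the upper right, and Mrpl48 lies near zero on the horizontal axis.

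No member was called for sex. Between males and females on the Affymetrix arrays 0 of 89 member probesets were called in limma, against 0.0257% of all (0.0206% higher and 0.00514% lower in males), and 2 had an unadjusted p under 0.05 (2.25%, against 3.75% of all), Mrpl35 1440989_at and Mrps14 1443262_at. The differences, male minus female, lay between −0.17 and 0.08. For the interaction of strain and sex 0 members were called in limma, against 0% of all, and 2 had an unadjusted p under 0.05 (2.25%, against 1.79% of all). These were Mrps14 1443262_at and Mrps15 1430100_at. The strain difference in males minus that in females was −0.32 and −0.35 there, and the adjusted p was 1 for both. B6 female 64 had the highest B6 value at each.

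B6 female 64 stood apart from the other B6 arrays at the called members higher in D2 and at some uncalled members. At all 7 called probesets higher in D2 it lay above every other B6 array, and at 5 of them it lay inside the range of the D2 arrays. At 1420488_at of Mrps14 it read 10.76, against 10.22 to 10.49 on the other B6 arrays and 10.57 to 10.87 in D2. At the 5 called probesets higher in B6 it lay among the other B6 arrays at 3, above them at Mrps27 and below them at Dap3, and inside the D2 range at none. Its members also had the highest median deviation from their means of any Affymetrix array, 0.18, against −0.13 to 0.06 on the other B6 arrays. Without it 15 member probesets were called, among them 11 of the 12. Mrpl15 was lost (0.23, adjusted p = 0.0139), and Mrpl3 1422463_a_at, Mrps15 1449294_at, Mrpl51 1416878_at (0.26, adjusted p = 0.00290) and Mrps23 1421874_a_at (−0.305, adjusted p = 0.00112) were gained.

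**Figure D5:**
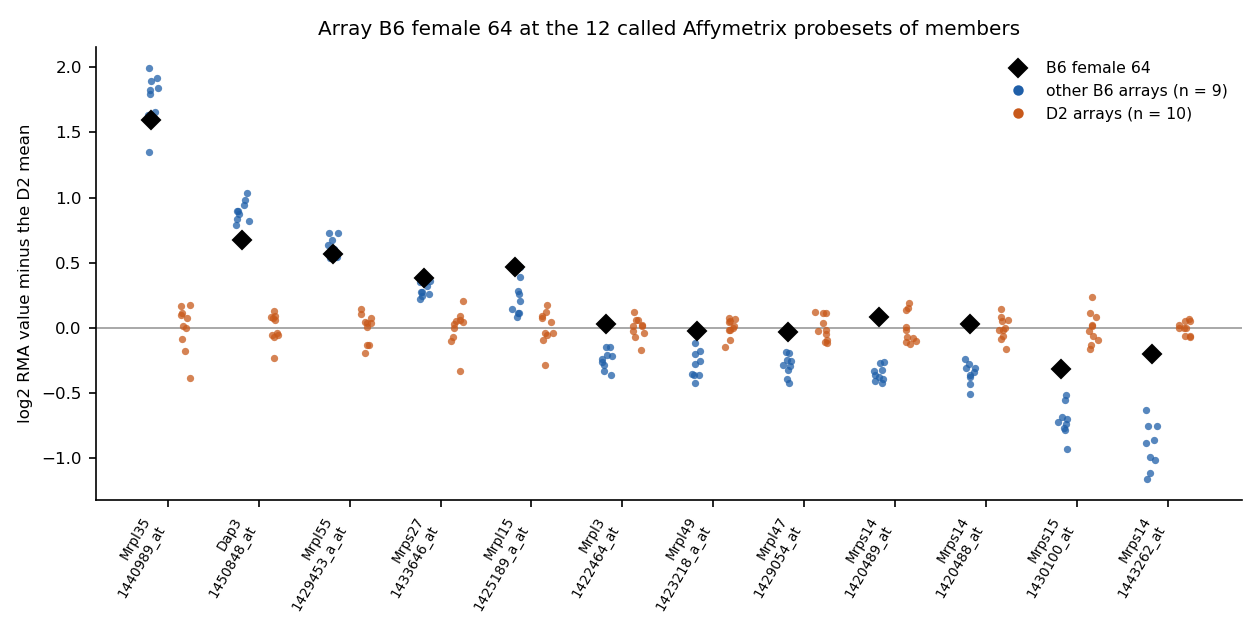
Log2 RMA values minus the D2 mean at the 12 called member probesets, for 10 B6 arrays (left in each pair, diamond for B6 female 64) and 10 D2 arrays (right). The diamond lies above all other B6 arrays at the 7 probesets higher in D2, and clear of the D2 arrays at the 5 higher in B6.

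The wider pathway of mitochondrial translation was read from lists of other genes. The list of further ribosomal proteins also holds Mrpl58, which is a member and was not called on either array type. Among the 4 genes of that list on the Affymetrix arrays, Mrpl58 included, Gadd45gip1, a protein of the large subunit, was higher in B6 (8.82 ± 0.14 in B6 and 8.33 ± 0.12 in D2, SD, n = 10 each, difference 0.49, adjusted p = 2.90e-06 in limma). Among its 3 genes on the Illumina arrays, Mrpl58 included, Ptcd3, a pentatricopeptide repeat protein of the small subunit, was higher in B6 (9.63 ± 0.11 in B6 and 9.10 ± 0.10 in D2, SD, n = 12 each, difference 0.53, adjusted p = 9.02e-10 in limma). Ptcd3 had 0.08 on the Affymetrix arrays (adjusted p = 0.510).

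Of 10 translation factors and mRNA-binding proteins on the Affymetrix arrays, 5 were called (50%, against 12.5% of all genes). The initiation factor Mtif2 (0.81) and Lrpprc, which stabilizes mitochondrial mRNAs (0.68), were higher in B6, both without overlap. The elongation factor Gfm1 (−0.32), the methionyl-tRNA formyltransferase Mtfmt (−0.36) and the initiation factor Mtif3 (−0.24) were higher in D2, although the brighter probeset of Mtfmt had 0.07 (adjusted p = 0.269). On the Illumina arrays 2 of 10 were called (20%, against 11.6% of all genes). The release factor Mtrf1 was higher in B6 (0.26), with 0.11 at its other tested probe (adjusted p = 0.102). Lrpprc had 3 called probes that differed in direction (0.32, 0.51 and −0.44). Gfm1 (0.06, adjusted p = 0.548) and Mtif3 (−0.06, adjusted p = 0.564) were not called on the Illumina arrays.

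Among the mitochondrial aminoacyl-tRNA synthetases, which charge the tRNAs, 2 of 14 Affymetrix genes (14.3%, against 12.5% of all genes) and 3 of 11 Illumina genes (27.3%, against 11.6%) were called. These calls were higher in D2. Fars2 had −0.42 (Affymetrix) and −0.37 (Illumina), without overlap on either array type, and Vars2 had −0.60 (Affymetrix) and −0.27 (Illumina), with −0.13 at its second Affymetrix probeset (adjusted p = 0.104). Wars2 was called on the Illumina arrays (−0.49). Of the genes for assembly and rRNA, Mtg2 and Mterf3 were higher in B6 and Mrm1 higher in D2 among 21 genes on the Affymetrix arrays (14.3% called), and Mpv17l2 was higher in B6 and Mrm3 higher in D2 among 18 on the Illumina arrays (11.1% called), shares near those of all genes. For comparison, 13.3% of Affymetrix and 14.7% of Illumina features of cytosolic ribosomal proteins were called, and 2.8% and 8.54% of those of oxidative phosphorylation.

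Markers of striatal neurons were present on both array types, with a mean level over the list of 10.20 to 11.14 in B6 and 10.30 to 10.99 in D2 on the Affymetrix arrays, and 0 of 8 genes called there and 1 of 7, Drd2, on the Illumina arrays. Of all genes, 12.5% were called on the Affymetrix arrays and 11.6% on the Illumina arrays. Microglial markers exceeded these shares on both array types (57.1% and 80%), and oligodendrocyte markers on the Illumina arrays alone (12.5% and 75%). Of the microglial genes 4 of 7 were higher in B6 on the Affymetrix arrays (mean level 8.52 to 8.94 in B6, 8.34 to 8.56 in D2) and 4 of 5 on the Illumina arrays (10.02 to 10.24 in B6, 9.39 to 9.65 in D2). Of the oligodendrocyte genes 1 of 8 was higher in B6 on the Affymetrix arrays (10.74 to 11.46 in B6, 10.24 to 11.21 in D2) and 6 of 8 on the Illumina arrays (11.37 to 11.82 in B6, 10.94 to 11.36 in D2). No astrocyte gene was called among 5 on each array type. Of the blood vessel genes 1 of 4 was higher in B6 on the Affymetrix arrays, and 0 of 2 were called on the Illumina arrays. Choroid plexus genes had 0 calls among 3 (Affymetrix) and 2 (Illumina). Their Affymetrix mean level was 7.11 to 11.41 in B6 and 5.38 to 11.32 in D2. The part of these cell types in the differences of the members was not tested.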

How the data were processed

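Total RNA of the striatum was hybridized to Affymetrix arrays (20 mice) and Illumina arrays (24 mice), 1 array per mouse. The Affymetrix values are log2 RMA values as deposited, which the authors made from perfect-match probes with background correction and quantile normalization, after masking probes over SNPs or with several targets. The Illumina values are the authors' VST values, on a scale that approaches log2 only at high signal. Sorted, they were equal on all arrays, as after quantile normalization, although robust spline normalization is named. Bead signal intensities, deposited by the authors without normalization, and their deposited detection p-values served for filters and alternatives. Illumina probe sequences were decoded from the deposited nuIDs.

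Genes were assigned by the platform annotation. Affymetrix probesets in the upper 50% by mean (at least 6.19) and Illumina probes detected at p under 0.05 on all arrays of at least 1 strain entered the fits (limma 3.58.1, lmFit and eBayes, in R 4.3.3 with statmod 1.5.0). Strain and sex were fitted on the Affymetrix arrays, strain alone on the Illumina arrays, and the interaction in a separate fit. Adjusted p-values follow Benjamini and Hochberg over all features of a fit. They set each difference against the spread between mice, whose number limits the precision. The named genes are the members called on both array types, the 8 largest differences in each direction among members called on 1, members called in opposite directions or by a call lost without 1 array, Dap3, the Mrps18 and stalk genes, and up to 8 called genes of each pathway list. Mrpl51 and Mrps23, Mrpl53 and the dim probesets were chosen after their values were seen. The members and lists were chosen with earlier results of these data known. Alternatives covered filters, normalization, covariates, single sexes, array weights, variance models, a replicate block, the threshold and left-out arrays. The fits were tested on simulated data.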

Additional observations from a re-analysis of the deposited data

Results flagged for a closer look

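Within the 4 groups of 5 Affymetrix arrays, 120 sets of values were examined for a single array far from the other 4, over 29 probesets of the named members and the median deviation of all members. In 5 of them 1 array lay apart by more than the critical gap, and chance flags about 1 in 20 such sets. B6 female 64 was high at Mrpl3 1422463_a_at, at 8.84 against 8.16 to 8.29 on the other B6 females, and at Mrps18c 1427901_at, at 10.10 against 9.75 to 9.85. B6 female 62 was high at Mrpl55 1429453_a_at, at 9.11 against 8.97 to 9.0. D2 male 78 was low at Mrpl49 1423218_a_at, at 8.52 against 8.68 to 8.74, and D2 male 80 was low at Mrps14 1443262_at, at 7.01 against 7.07 to 7.09.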

How the results depend on the processing

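The number of called member probesets on the Affymetrix arrays was 12, where 9.7% of all probesets were called. It moved to 5 in females alone (3.17% of all) and 7 in males alone (3.95% of all), fits with fewer arrays. It was 15 without the filter on low values (7.18% of all) and 8 in the upper 25% (8.87% of all). With array weights it was 17 (11.9% of all). It was 15 after a further quantile normalization (9.75% of all) and 14 with arrays centred on their medians (9.37% of all), where Mrpl3 1422464_at was lost. Leaving out each array in turn gave 11 to 15. On the Illumina arrays it was 17, with 12 to 20 over the alternatives and 14 to 19 when each array was left out. Log2 signals centred on array medians put the median difference of all probes at 0.183, against −0.016 with the authors' values. Of all probes 7.6% were then called, 85.4% of them higher in B6, against 54.9% with the authors' values. The member calls were 12 higher in B6 and 0 higher in D2, against 13 and 4. The calls of Mrpl3 ILMN_2643264, Mrpl47 ILMN_2723579, both Mrps5 probes and Mrps7 ILMN_2981818 were lost there. The 4 members called in the same direction on both array types were 2 with the Illumina probes limited to those detected on all 24 arrays, which removes Mrpl35 and Mrpl55, and 3 to 5 when each array was left out. The alternatives for this count were added after the data were seen. Members called for sex and for strain by sex were 0 in all alternatives run.

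Animal numbers on the Illumina arrays are not said to pair mice. Same-numbered arrays had deviations with correlations of −0.431 to 0.286 (median −0.104), and 0 of 12 B6 arrays correlated best with their own number. With the replicate block, 13 member probes were called, all among the 17, where 7.13% of all probes were called. Of the 29 called named features none changed direction, while 15 lost their call in at least 1 alternative other than leaving out 1 array, and 4 when 1 array was left out. Mrpl53 ILMN_2767187 (−0.29, adjusted p = 0.0109) was called without B6 array 11 or 12 or D2 array 1, 9 or 11.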
